A study of Homo sapiens with 27 samples.

Results

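The shRNAs described here are those of a pooled kinome library whose TRCN clone numbers lie in unbroken runs of 4 or more consecutive integers. The number after TRCN was read from each shRNA name, and 2958 of the 3177 shRNAs (93.1%) met the rule, in 261 runs. The other 219 shRNAs were either alone, with no neighbour by number (44), or in runs of 2 or 3 (175). The pool had been delivered to 3 head and neck squamous cell carcinoma (HNSCC) lines, UMSCC25, UMSCC8 and UMSCC1. Cells of each line were plated after transduction and received the vehicle DMSO, the EGFR inhibitor gefitinib or AZD8931, an inhibitor of EGFR, ERBB2 and ERBB3, for 72 h, followed by 72 h without the agent. Each of the 9 groups had 3 plates, which gave 27 libraries of shRNA counts. The growth and treatment description gave 300 nM gefitinib and 30 nM AZD8931, whereas another label field gave 1.0 μM for both agents. All groups, the DMSO controls included, carried the same shRNA pool after antibiotic selection. Each line was transduced separately, and its plates were divided from its transduced cells, so that p-values measure only the spread between plates.

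A short hairpin RNA is transcribed from an integrated lentiviral cassette and is cut by Dicer to a short duplex, 1 strand of which guides the silencing complex to a matching mRNA. The integrated hairpin also serves as a barcode, since its count after PCR reports how many cells carry it. Libraries of The RNAi Consortium (TRC) hold several hairpins per gene, because hairpins differ in knockdown and in unintended targets, and clones designed for 1 transcript were often given successive numbers. A pair of neighbours by number may therefore share a target, whereas clones far apart in number usually do not. Targets were not assigned here, so that pairs 1 number apart mix clones of 1 gene with clones of different genes. The comparison asked whether neighbours were more alike than distant members, first in abundance under DMSO and then in the change with each inhibitor.

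Library totals ranged from 178406 to 559422 counts. In DMSO the median member held 153, 166 and 140 CPM, the unit used throughout for counts relative to the library total as scaled by the trimmed mean of M values (TMM), in UMSCC25, UMSCC8 and UMSCC1, against 114, 140 and 118 CPM for the other shRNAs. The tenth and ninetieth percentiles of the members were 20.1 and 564 CPM in UMSCC25, 26.3 and 531 CPM in UMSCC8, and 15.5 and 565 CPM in UMSCC1. The 4 plates that stood apart were UMSCC8 DMSO plate 1, with 300 members at 0, UMSCC1 AZD8931 plate 1, with 319 members at 0, UMSCC8 gefitinib plate 3, which had the lowest total, and UMSCC1 DMSO plate 2, in which 14.0% of counts came from TRCN0000000366. The tests of agreement and the counts of calls by p-value are given below with and without these plates. So are the correlations of levels 1 and 5 numbers apart and in the shortest and longest runs. The same holds for the intraclass correlation of abundance, the neighbour correlations of fitted changes and the counts of adjacent pairs by unadjusted p. All other values use all plates unless stated.

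The runs ranged from 4 to 108 clones, with a median of 7. The most frequent length was 5, with 91 runs and 455 members, and 129 of the 261 runs had a length that was a multiple of 5. Runs of 4 to 10 clones numbered 174 and held 1056 members, and the 87 longer runs held 1902. The longest run extended from clone number 6168 to 6275. Member numbers spanned 354 to 115280, and the members formed 2697 pairs 1 number apart. The minimum for a test, a sum of 10 counts across a line's 9 libraries, was reached by 2879 members in UMSCC25, 2905 in UMSCC8 and 2871 in UMSCC1.

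Of the 31 shRNAs with no count in any library, 26 were members, and 0 of the 31 lay next to another of them. Among the members under 10 counts, 79 in UMSCC25, 53 in UMSCC8 and 87 in UMSCC1, the number of adjacent pairs with both under 10 was 4, 2 and 4. A count of 0 in 1 library allows up to 3 counts, and intervals of this kind cover counting error only.

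Under DMSO, clones 1 number apart were more alike in abundance than clones more than 50 apart, in each of the 9 plates. Agreement was measured as the Pearson correlation of log2 CPM (0.5 counts added) over pairs, each pair entered in both orders. Across pairs 1 apart it was 0.203, 0.217 and 0.207 in the 3 UMSCC25 plates. In UMSCC8 it was 0.158, 0.258 and 0.256, the lowest of them in plate 1, which stood apart. In UMSCC1 it was 0.183, 0.178 and 0.153. Distant pairs gave a mean of -0.00214 over the 9 plates, close to 0 as the average over nearly all pairs must be. These correlations rest on 2557, 2601 and 2539 adjacent pairs, which share a library, a PCR and, within a run, their members. The difference between near and far pairs was 0.204 ± 0.0383 (SD, n = 9 plates) and was positive in 9 of 9 (two-sided exact sign-flip permutation test over plates, p = 0.0039, the lowest value 9 plates allow; adjusted over the 3 tests of the family, p = 0.0117). All plates carry 1 pool and their levels are closely alike, so a positive value in 1 plate makes the others likely. The p covers the spread between plates, not that between clones or pools. Within 1 line of 3 plates the smallest possible p is 0.25. Without the plates that stood apart, the difference was 0.213 in the 7 DMSO plates that remained (exact permutation p = 0.0156).

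The likeness was partial. The median gap in mean log2 CPM between adjacent clones was 1.42 in UMSCC25, 1.35 in UMSCC8 and 1.57 in UMSCC1, and between distant clones 1.69, 1.67 and 1.84. Adjacent clones lay within 2-fold of each other in 36.8%, 37.7% and 33.8% of pairs, against 31.4%, 32.1% and 29.0% of distant pairs. Gaps over 8-fold were found in 17.4%, 17.8% and 23.0% of adjacent pairs and in 25.0%, 25.6% and 28.7% of distant pairs. Most neighbours therefore differed in abundance by more than 2-fold.

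Agreement in abundance was highest between immediate neighbours and lower, without a steady decline, from 5 to 50 numbers apart. With the mean of the 3 DMSO plates, the correlation at distances 1, 2, 3, 4 and 5 was 0.227, 0.174, 0.146, 0.153 and 0.0897 in UMSCC25. It was 0.255, 0.181, 0.161, 0.192 and 0.118 in UMSCC8, and 0.197, 0.140, 0.137, 0.148 and 0.0699 in UMSCC1. In all 3 lines distance 1 had the highest value, distance 4 was above distance 3, and distance 5 was lower than each of distances 1 to 4. Farther out the values did not fall steadily, with 0.121, 0.0910 and 0.113 at distances 10, 20 and 50 in UMSCC25, 0.126, 0.0839 and 0.109 in UMSCC8, and 0.124, 0.107 and 0.116 in UMSCC1. Without the DMSO plate that stood apart, distances 1 and 5 gave 0.275 and 0.126 in UMSCC8 and 0.185 and 0.0722 in UMSCC1. Pairs 2 to 10 apart that lay in 1 run gave 0.125, 0.141 and 0.116, and pairs as far apart that lay in different runs gave 0.111, 0.117 and 0.0987. At 11 to 50 apart, pairs within 1 run gave 0.0440, 0.0614 and 0.0570, and pairs of different runs 0.0992, 0.102 and 0.0854. Pairs of 1 run were slightly more alike at 2 to 10 apart and less alike at 11 to 50 apart, in all 3 lines. These classes also differ in run length, because pairs of 1 run at 11 to 50 apart come only from runs of more than 11 clones. Runs of 5 or fewer clones likewise hold no pair 5 apart. Run length and distance were not separated here. From 51 to 200 apart the correlations were 0.00309, -0.00377 and 5.57e-05.

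Short runs showed the higher values. For adjacent clones in runs of 4 to 5 the correlation was 0.333 in UMSCC25, 0.407 in UMSCC8 and 0.301 in UMSCC1. In runs of 21 or more it was 0.119, 0.201 and 0.138. Runs of 6 to 10 and of 11 to 20 lay between these in all 3 lines. Among runs of 5 with every clone tested (76, 81 and 74 runs in UMSCC25, UMSCC8 and UMSCC1), the intraclass correlation of abundance, which is the share of variance that lies between runs, was 0.306, 0.352 and 0.310. Without the DMSO plate that stood apart, it was 0.383 in UMSCC8 and 0.294 in UMSCC1, and runs of 4 to 5 and of 21 or more gave 0.425 and 0.231 in UMSCC8 and 0.274 and 0.123 in UMSCC1, while runs of 11 to 20 in UMSCC8, at 0.229, no longer lay above the longest. The spread inside such a run was still wide, with a median range from lowest to highest clone of 3.62, 3.50 and 3.90 on the log2 scale. When the 38 longer runs whose length was a multiple of 5 (605 members) were divided into consecutive blocks of 5, steps inside a block gave 0.158, 0.152 and 0.196 and steps across a block edge 0.270, 0.265 and 0.0998. The order of the 2 kinds of step differed between lines, and steps across an edge numbered only 80 or 81 a line.

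Member abundance was largely shared between lines. Across members tested in both, mean log2 CPM under DMSO correlated at 0.848 between UMSCC25 and UMSCC8, 0.845 between UMSCC25 and UMSCC1, and 0.824 between UMSCC8 and UMSCC1. The difference in abundance between a pair of lines agreed little between neighbours, with correlations of 0.0346, 0.0323 and 0.0214 over pairs 1 apart. The 18 treated libraries gave nearly the same neighbour agreement of levels as the DMSO plates, from 0.145 to 0.246. All plates carried 1 shRNA pool, delivered to each line separately, so that 9 plates are not 9 pools.

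The changes with the inhibitors had neighbour correlations near 0. Each treated plate was set against the DMSO plate of its line and replicate number, so that no plate entered 2 ratios with 1 agent. The same DMSO plates served both agents, so that the ratios of the 2 agents are not independent of each other. For gefitinib, pairs 1 apart correlated at 0.00474, 0.00922 and -0.00779 in UMSCC25. In UMSCC8 the values were 0.0199, 0.0669 and -0.00569, and in UMSCC1 -0.0139, 0.0235 and 0.0355. The near-minus-far difference was 0.0152 ± 0.0254 (SD, n = 9), positive in 6 of 9, and did not pass the test (exact sign-flip permutation test, p = 0.105; adjusted p = 0.105). Without the plates that stood apart it was 0.0163 over 6 ratios (exact permutation p = 0.312).

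For AZD8931, pairs 1 apart correlated at 0.0179, 0.0190 and 0.0107 in UMSCC25. In UMSCC8 the values were -0.0173, 0.0948 and -0.0273, and in UMSCC1 0.0278, 0.00792 and 0.0496. The difference was 0.0209 ± 0.0363 (SD, n = 9), positive in 7 of 9 (exact sign-flip permutation test, p = 0.105; adjusted p = 0.105), and 0.0281 over 6 ratios without the plates that stood apart (exact permutation p = 0.156). Under 5 of the alternative settings the AZD8931 difference had an unadjusted p under 0.05, with values from 0.0227 to 0.0316, and the gefitinib difference did so with rank correlations, at 0.0209. In 1 of these AZD8931 settings, that with no replicate block, the ratios of a line shared their DMSO plates and were not independent. Ratios between DMSO plates of 1 line, with no inhibitor on either side, gave -0.0129 to 0.0437 over pairs 1 apart, a range that held 7 of the 9 gefitinib values and 5 of the 9 AZD8931 values.

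The highest of the 18 values for changes, 0.0948, lay under the lowest of the 9 for DMSO levels, 0.153. Changes were far less repeatable than levels, as the next paragraph gives, so this order does not compare how far neighbours share the 2 quantities. For both agents the highest value came from the ratio on UMSCC8 DMSO plate 2. Without that ratio the near-minus-far difference was 0.00866 for gefitinib and 0.0115 for AZD8931, the lowest values with 1 ratio left out. The 2 inhibitors, whose ratios share their DMSO plates, did not differ from each other past the threshold (AZD8931 minus gefitinib 0.00571 ± 0.0255 (SD, n = 9), positive in 6 of 9, exact sign-flip permutation p = 0.512).

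The agreement of a member with itself gives the scale for these values. When the same member was compared across ratios that shared no plate, gefitinib changes correlated at a mean of 0.0832 in UMSCC25, 0.0780 in UMSCC8 and 0.0223 in UMSCC1. For AZD8931 the means were 0.0964 and 0.0490 in UMSCC25 and UMSCC8. In UMSCC1 the 3 AZD8931 values differed widely, at 0.349 for ratios 1 and 3 and at -0.0233 and 0.0152 for the pairs with ratio 2, and those for gefitinib ranged from -0.0807 to 0.195. Levels of the same member between DMSO plates correlated at 0.873, 0.758 and 0.795. Between plates of 1 group, counts differed by a reduced chi-square of 6.08 to 39.4, where counting error alone gives about 1. Agreement of the changes between neighbours was not detected with these plates, which does not show that it is absent. Between lines, the fitted changes of the same member correlated for gefitinib at 0.112 (UMSCC25 and UMSCC8), -0.0156 (UMSCC25 and UMSCC1) and 0.0969 (UMSCC8 and UMSCC1), and for AZD8931 at 0.192, -0.195 and -0.0324.

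Fitted log2 fold changes, which use all 3 plates of a group, were also near 0 in neighbour correlation. Over pairs 1 apart they correlated for gefitinib at -0.0278 in UMSCC25, 0.0273 in UMSCC8 and -0.0134 in UMSCC1, and for AZD8931 at 0.0199, 0.0103 and 0.0448. Without the plates that stood apart, the gefitinib values were 0.0184 in UMSCC8 and -0.0222 in UMSCC1 and the AZD8931 values 0.00804 and 0.0204. Neighbours lay on the same side of the members' median change in 50.8%, 52.1% and 49.4% of pairs with gefitinib. With AZD8931 they did so in 52.0%, 51.3% and 52.4%. Distant pairs gave 49.9% in each of the 6 comparisons, a share that centring on the median largely sets in advance. Among runs of 5, the intraclass correlation of the changes ranged from -0.0126 to 0.0558. It was under that of abundance, which was also much the more repeatable between plates. The median log2 fold change over members lay between -0.00691 and 0.0164, beside -0.00475 to 0.0133 over all shRNAs tested.

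No member passed an adjusted p of 0.05 in edgeR's quasi-likelihood test in any of the 6 comparisons, 0 of 2879 in UMSCC25, 0 of 2905 in UMSCC8 and 0 of 2871 in UMSCC1, and 0% of all shRNAs tested did so. At an unadjusted p under 0.05, gefitinib in UMSCC25 gave 79 members on the lower side and 139 on the higher, where 2.72% and 4.79% of all shRNAs tested were so. AZD8931 in UMSCC25 gave 113 lower and 151 higher, beside 4.05% and 5.28% of all. In UMSCC8, 200 members were lower and 176 higher with gefitinib, beside 6.96% and 6% of all, and 109 lower and 94 higher with AZD8931, beside 3.85% and 3.27%. In UMSCC1, 60 were lower and 47 higher with gefitinib, beside 2.08% and 1.62%, and 126 lower and 137 higher with AZD8931, beside 4.67% and 4.83%. Without 1 library at a time, these sums ranged from 142 (without DMSO plate 3) to 312 in UMSCC25 with gefitinib, from 165 (without DMSO plate 1) to 320 with AZD8931, from 241 (without gefitinib plate 1) to 413 in UMSCC8 with gefitinib, and from 109 (without AZD8931 plate 3) to 280 with AZD8931. In UMSCC1 they ranged from 66 (without DMSO plate 2) to 179 (without AZD8931 plate 1) with gefitinib and from 134 (without DMSO plate 3) to 409 (without AZD8931 plate 2) with AZD8931. Without the plates that stood apart they were 491 and 258 in UMSCC8 and 128 and 216 in UMSCC1. Counted instead by plates that did not overlap, 197 members were below and 214 above DMSO with gefitinib in UMSCC25 (6.99% and 7.51% of all shRNAs tested) and 297 and 269 with AZD8931 (10.1% and 9.32%). In UMSCC8 they were 272 and 241 with gefitinib (9.49% and 8.24%) and 230 and 221 with AZD8931 (8.21% and 7.7%), and in UMSCC1 167 and 180 with gefitinib (5.77% and 6.1%) and 185 and 158 with AZD8931 (6.65% and 5.61%). Members are most of the pool, so their counts follow the background closely.

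Adjacent members that both had an unadjusted p under 0.05 were few. In UMSCC1 with AZD8931, 8 adjacent pairs were both lower, 11 both higher and 4 opposite, of 2539 pairs, which is 7.48 same-side and 1.58 opposite pairs per 1000, whereas distant pairs gave 4.17 and 4.20. In UMSCC25 with AZD8931 the numbers were 2, 15 and 10 of 2557 pairs, or 6.65 and 3.91 per 1000, against 4.26 and 4.12. In UMSCC8 with gefitinib, the comparison with the most such members, they were 17, 7 and 22 of 2601 pairs, or 9.23 and 8.46 per 1000 against 8.38 and 8.35. In UMSCC25 with gefitinib they were 4, 6 and 8, or 3.91 and 3.13 per 1000 against 3.06 and 2.64. With all plates, opposite pairs were the more frequent in the other 2 comparisons. The numbers were 3, 1 and 6 in UMSCC8 with AZD8931 (1.54 and 2.31 per 1000 against 2.43 and 2.43) and 1, 0 and 2 in UMSCC1 with gefitinib (0.394 and 0.788 per 1000 against 0.694 and 0.685). Without the plates that stood apart, UMSCC1 with AZD8931 had 6, 6 and 6, or 4.77 and 2.38 per 1000 against 2.83 and 2.86, and UMSCC8 with gefitinib 26, 22 and 36, or 18.5 and 13.9 against 14.3 and 14.4. UMSCC8 with AZD8931 then had 8, 4 and 7, or 4.63 and 2.70 against 4.00 and 3.88, so that same-side pairs became the more frequent. UMSCC1 with gefitinib had 0, 0 and 1, or 0 and 0.397 against 1.01 and 0.986. These counts are descriptions, since pairs share members and plates.

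DESeq2, an alternative to edgeR on the same counts, called 7 members in UMSCC25 with gefitinib (1 lower, 6 higher), where 0.0811% and 0.568% of all shRNAs with an adjusted p were called lower and higher. It called 7 with AZD8931 in UMSCC25 (1 lower, 6 higher; 0.0324% and 0.227% of all) and 71 with gefitinib in UMSCC8 (29 lower, 42 higher; 1.15% and 1.75%). In UMSCC8 with AZD8931 it called 6 (4 lower, 2 higher; 0.281% and 0.14%), in UMSCC1 0 with gefitinib (0% of all) and 21 with AZD8931 (14 lower, 7 higher; 0.599% and 0.247%). Without the plates that stood apart, DESeq2 called 76 and 5 members in UMSCC8 and 0 and 10 in UMSCC1, and edgeR called 1 in UMSCC1 with AZD8931, TRCN0000010117. With all plates, only 4 adjacent pairs had both clones called by DESeq2, and 2 of these moved in opposite directions. They were chosen after their values were seen, and none of the 8 clones passed in edgeR, where their adjusted p lay between 0.171 and 0.3175.

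The opposite pairs were both in UMSCC8 with gefitinib. TRCN0000001351 was at 449, 468 and 409 CPM in the DMSO plates and at 125, 244 and 192 CPM with gefitinib. Its neighbour TRCN0000001352 was at 527, 291 and 407 CPM with DMSO and at 827, 641 and 1009 CPM with gefitinib. Thus the treated plates lay below every DMSO plate for the one and above every DMSO plate for the other. Likewise TRCN0000001402 went from 308, 395 and 354 CPM to 128, 134 and 111 CPM, while TRCN0000001403 was at 0, 42.3 and 28.7 CPM with DMSO and at 225, 71.7 and 268 CPM with gefitinib. The first DMSO plate and the last gefitinib plate listed, which hold the 0 and the 268 CPM, both stood apart. The edgeR log2 fold changes of the second pair were -1.49 ± 0.36 (SE) and 2.96 ± 0.84 (SE).

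The pairs called on the same side were TRCN0000037511 and TRCN0000037512 in UMSCC8 with gefitinib and TRCN0000010147 and TRCN0000010148 in UMSCC1 with AZD8931. TRCN0000037511 was at 334, 282 and 285 CPM with DMSO and 115, 56.2 and 93.3 CPM with gefitinib. TRCN0000037512 was at 179, 400 and 317 CPM with DMSO and 115, 89.1 and 105 CPM with gefitinib. Both had treated plates that lay below every DMSO plate. In UMSCC1, TRCN0000010147 was at 79.6, 22.1 and 298 CPM with DMSO and at 0, 25.7 and 5.57 CPM with AZD8931, so that its groups overlapped. Its 22.1 CPM with DMSO and its 0 with AZD8931 were in plates that stood apart. TRCN0000010148 was at 63.7, 53.0 and 143 CPM with DMSO and at 3.05, 7.34 and 18.6 CPM with AZD8931, with no overlap.

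The run of clone numbers 365 to 378 shows how far neighbours can differ. It was chosen after its values were seen, because its member TRCN0000000374 had the smallest p of all members in 3 of the 6 comparisons. Its 14 clones spanned 1583-fold in mean DMSO abundance in UMSCC25, 1055-fold in UMSCC8 and 1948-fold in UMSCC1. TRCN0000000366 was at 24948, 29018 and 25006 CPM in the UMSCC25 DMSO plates, and its neighbour TRCN0000000365 at 39.2, 50.1 and 2.07 CPM. TRCN0000000370 was at 28316, 31594 and 28370 CPM, and TRCN0000000371 at 20360, 18785 and 20532 CPM, the only adjacent pair of the run with both clones at such levels. TRCN0000000372, the next clone, was at 202, 163 and 180 CPM.

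TRCN0000000374 was at 5854, 6092 and 6365 CPM with DMSO in UMSCC25, at 11288, 11693 and 15079 CPM with gefitinib and at 9875, 13106 and 14760 CPM with AZD8931. Every treated plate was above every DMSO plate. The log2 fold changes were 1.06 ± 0.21 (SE) and 1.04 ± 0.21 (SE), with edgeR adjusted p = 0.2348 and 0.1595. In UMSCC8 the clone was at 19840, 20933 and 19584 CPM with DMSO and at 42562, 32038 and 54199 CPM with gefitinib, again with no overlap (log2 fold change 1.09 ± 0.22 (SE), edgeR adjusted p = 0.171). With AZD8931 in UMSCC8 it was at 28821, 42375 and 26938 CPM (log2 fold change 0.70 ± 0.22 (SE)), above every DMSO plate. In UMSCC1 its groups overlapped, with 6109, 12301 and 8429 CPM with DMSO, 9778, 11351 and 10466 CPM with gefitinib and 9682, 16484 and 10809 CPM with AZD8931.

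The flanking clones had smaller fitted changes in UMSCC25. There, with gefitinib, the log2 fold change of TRCN0000000373 was 0.27 ± 0.27 (SE) and that of TRCN0000000375 was 0.29 ± 0.33 (SE), and with AZD8931 they were -0.22 ± 0.27 (SE) and -0.23 ± 0.33 (SE). In UMSCC8 TRCN0000000373 had 0.60 ± 0.30 (SE) with gefitinib and 0.64 ± 0.30 (SE) with AZD8931, the latter close to that of TRCN0000000374, while TRCN0000000375 had -0.15 ± 0.36 (SE) and -0.09 ± 0.35 (SE). In UMSCC1 TRCN0000000375 had 0.66 ± 0.52 (SE) with AZD8931, above the 0.46 ± 0.35 (SE) of TRCN0000000374, and TRCN0000000373 had -0.35 ± 0.42 (SE) with gefitinib. TRCN0000000371, 3 numbers away and also abundant, had -0.49 ± 0.20 (SE) in UMSCC25 and -0.72 ± 0.20 (SE) in UMSCC8 with gefitinib. Its UMSCC8 plates were at 15663, 19017 and 13379 CPM with DMSO and at 8767, 10924 and 9578 CPM with gefitinib, with no overlap. DESeq2 called TRCN0000000374 higher in UMSCC25 with both agents and in UMSCC8 with gefitinib, and TRCN0000000371 lower in UMSCC8 with gefitinib. It also called TRCN0000000366 higher in UMSCC8 with gefitinib (DESeq2 log2 fold change 0.71 ± 0.21 (SE)). Over the whole run, the fitted gefitinib changes were below 0 for 6 clones in UMSCC25, 8 in UMSCC8 and 9 in UMSCC1, of 14 in each.

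Of the runs of 5, 71 had every clone tested in all 3 lines. The run with the highest mean DMSO level was that of clone numbers 95034 to 95038. Its 5 clones were at a mean log2 CPM of 10.9 in UMSCC25, and the fold between its most and least abundant clone was 11.1 in UMSCC25, 7.23 in UMSCC8 and 39.7 in UMSCC1. TRCN0000095035 and TRCN0000095036, adjacent to each other, led it in UMSCC25, with 5427, 4788 and 4453 CPM and with 4745, 3898 and 4155 CPM in the DMSO plates. TRCN0000095038, at its end, was at 549, 397 and 389 CPM. Both leading clones reached 22218 and 20628 CPM in UMSCC1 AZD8931 plate 1, which stood apart, and lay between 5705 and 7323 CPM in the other 2 AZD8931 plates.

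The run with the lowest mean DMSO level was that of clone numbers 568 to 572. In UMSCC25 its clone TRCN0000000571 was at 10.3, 2.09 and 0 CPM with DMSO, and TRCN0000000572 at 161, 91.9 and 139 CPM. TRCN0000000571 was at 0 in all 3 UMSCC1 DMSO plates and had 0, 3 and 22 counts in the gefitinib plates, so that the groups overlapped and 1 plate held most of the counts. In UMSCC8 the same clone was at 0, 70.5 and 70.7 CPM with DMSO and at 2.56, 19.4 and 52.5 CPM with gefitinib. Its 0 with DMSO and its 52.5 CPM with gefitinib were in plates that stood apart. Among runs of 5 with every clone tested in the line, this run also had the highest mean of its medians with the 2 agents in UMSCC25 (0.41 with gefitinib and 0.68 with AZD8931, log2), and its smallest adjusted p in each line stayed over the threshold. The gefitinib median was the value of TRCN0000000568, 0.41 ± 1.82 (SE), which rests on 5 DMSO and 6 gefitinib counts. The AZD8931 median was that of TRCN0000000572, 0.68 ± 0.56 (SE).

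By the same measure, the lowest run in UMSCC25 was that of clone numbers 39743 to 39747, with median log2 fold changes of -0.74 with gefitinib and -0.90 with AZD8931. TRCN0000039744 was at 94.98, 100.3 and 116 CPM with DMSO, at 29.6, 38.5 and 31.0 CPM with gefitinib and at 22.6, 36.6 and 44.9 CPM with AZD8931, with no overlap. TRCN0000039746 was at 130.1, 113 and 120.0 CPM with DMSO and at 61.7, 59.0 and 17.7 CPM with gefitinib, also without overlap. TRCN0000039743, at the head of the run, was at 14.5, 2.09 and 10.3 CPM with DMSO and at 7.41, 7.69 and 24.3 CPM with gefitinib, overlapping. In the other lines TRCN0000039744 had log2 fold changes with gefitinib of 0.19 ± 0.47 (SE) in UMSCC8 and -0.37 ± 0.54 (SE) in UMSCC1.

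In UMSCC8, clone numbers 39613 to 39617 were lowest by the mean of the 2 medians (-0.74 with gefitinib and -0.48 with AZD8931). TRCN0000039616 was at 156, 118 and 57.3 CPM with DMSO, at 225, 229 and 117 CPM with gefitinib, overlapping, and at 217, 213 and 186 CPM with AZD8931, above every DMSO plate. Its neighbour TRCN0000039617 was at 200.1, 110.5 and 136 CPM with DMSO, at 79.4, 60.1 and 46.7 CPM with gefitinib, below every DMSO plate, and at 160, 54.7 and 84.9 CPM with AZD8931, overlapping. The highest mean of the 2 medians in UMSCC8 was that of clone numbers 38149 to 38153 (0.71 with gefitinib and 0.81 with AZD8931). There 5 of 5 clones were fitted higher with gefitinib, and with AZD8931 3 were higher and 2 lower. TRCN0000038149 led them with gefitinib, at 0, 37.6 and 55.4 CPM with DMSO and 146, 96.9 and 87.5 CPM with gefitinib. Its 0 was in DMSO plate 1, which stood apart. In UMSCC1 the same run had medians of -0.03 and -1.38, and TRCN0000038149 went from 31.8, 97.2 and 156 CPM with DMSO to 15.2, 3.67 and 13.0 CPM with AZD8931.

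In UMSCC1, the run of clone numbers 21199 to 21203 had the lowest mean of the 2 medians (-0.52 with gefitinib and -2.22 with AZD8931). TRCN0000021201 was at 41.8, 13.3 and 0 CPM with DMSO and at 0 in all 6 treated plates. Its DMSO counts were 21, 3 and 0, so that 1 plate held most of them and it passed the minimum for a test through the DMSO group alone. In UMSCC25 it reached a count in only 2 of the 9 plates and was not tested. The highest mean of the 2 medians in UMSCC1 was that of clone numbers 21581 to 21585 (0.90 and 0.52). Within that run TRCN0000021581 was at 65.7, 70.7 and 101 CPM with DMSO and 80.3, 221 and 146 CPM with gefitinib, and TRCN0000021584 at 111, 137 and 63.8 CPM with DMSO and 7.14, 38.6 and 91.5 CPM with gefitinib, both overlapping.

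One further run, of clone numbers 39773 to 39779, holds TRCN0000039774 to TRCN0000039777, which the study assigns to 1 gene, coding for a TGF-β receptor of type I, the kinase subunit that phosphorylates SMAD proteins. TRCN0000039774 was at 6.19, 0 and 35.2 CPM with DMSO in UMSCC25 (3, 0 and 17 counts) and at 0 in the 3 gefitinib plates, at least 5.75-fold lower with the gefitinib group set at 3 counts, a bound that rests mostly on DMSO plate 3. With AZD8931 it was at 20.8, 25.8 and 44.9 CPM, within or above the DMSO range. In UMSCC8 it was at 0, 11.8 and 9.56 CPM with DMSO and at 25.6, 13.6 and 29.2 CPM with gefitinib, and in UMSCC1 at 173, 53.0 and 13.1 CPM with DMSO and 0, 18.02 and 6.65 CPM with gefitinib. Its UMSCC8 values of 0 and 29.2 CPM and its UMSCC1 value of 53.0 CPM were in plates that stood apart.

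The other 3 clones of that gene differed from it in UMSCC25. TRCN0000039775 was at 103, 58.5 and 80.7 CPM with DMSO and 56.8, 35.9 and 252 CPM with gefitinib. TRCN0000039776 was at 103, 89.8 and 47.6 CPM and then at 74.1, 103 and 15.5 CPM. TRCN0000039777 was at 206, 100.3 and 221 CPM and then at 299, 249 and 61.9 CPM. All 3 overlapped between groups, with log2 fold changes of 0.51 ± 0.65 (SE), -0.33 ± 0.67 (SE) and 0.20 ± 0.61 (SE). The abundance of the 7 clones of the run spanned 25.8-fold in UMSCC25, 30.2-fold in UMSCC8 and 7.40-fold in UMSCC1. With AZD8931 in UMSCC25, TRCN0000039774 had a log2 fold change of 1.12 ± 1.30 (SE), and TRCN0000039775, TRCN0000039776 and TRCN0000039777 had -0.94 ± 0.67 (SE), -0.51 ± 0.67 (SE) and -1.25 ± 0.63 (SE). The study lists TRCN0000039777 and TRCN0000039775 with AZD8931, and both were fitted lower here. With each agent the fitted values for 1 target lay on both sides of 0. Apart from those of TRCN0000039775 and TRCN0000039777 with AZD8931, the estimates in this paragraph were smaller than their SE, so their signs are uncertain. The smallest edgeR adjusted p of the run in UMSCC25 was 0.5337 with gefitinib and 0.5519 with AZD8931.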

How the data were processed

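Head and neck carcinoma lines carrying a pooled kinome shRNA library were measured by sequencing of PCR-amplified hairpins (27 libraries, 9 groups of 3 plates, grouped by the labels). The authors deposited raw counts per shRNA, 1 column per library, not normalized. The submitters' processing notes name Bowtie 1.0.0, edgeR and hg19, with no role given. All columns were mapped to samples (0 were not), and no pair of plates in a group was alike within sampling noise.

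Counts were tested per line with edgeR 4.0.16 in R 4.3.3 (quasi-likelihood test, TMM scaling, at least 10 counts summed over the 9 libraries, Benjamini-Hochberg threshold 0.05 over all shRNAs tested). DESeq2 1.42.0 was an alternative. Neighbour agreement was computed in Python 3.11.15 with numpy 2.4.6 on log2 CPM with 0.5 counts added, and tested by exact two-sided sign-flip permutation over plates. Both procedures were tested on simulated data. With library totals of 178406 to 559422 counts, an shRNA at 0 may have held up to 3 counts, and counting error alone is covered. Reads of PCR products carried no molecular identifier and may repeat 1 molecule.

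Members and lists were chosen with earlier results of these data known. Members were named as follows: the run holding TRCN0000039774 to TRCN0000039777; among runs of 5 with every clone tested, those with the highest and lowest mean DMSO level and, per line, the highest and lowest mean of the median changes with both inhibitors; up to 2 members called each way per comparison; adjacent members called together; and the longest run. Others are marked where they occur. The replicate numbers did not pair the plates, as same-numbered plates did not deviate together. Alternatives covered scaling, filters, added counts, rank correlation, the distance that counts as far, runs of 5, the replicate number, lines and single libraries.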

Additional observations from a re-analysis of the deposited data

Results flagged for a closer look

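Dixon's test was applied to 5 measures in each of 3 lines, 15 sets of 9 libraries in all, and singled out a library in 5 of them, where chance does so in about 1 in 20. UMSCC8 gefitinib plate 3 had 178406 counts, the lowest total of its line. UMSCC8 DMSO plate 1 had 300 members at 0, against 73 to 125 in the other libraries of the line, and correlated with them at a median of 0.706. For UMSCC1 AZD8931 plate 1 the median correlation within the line was 0.724. In UMSCC1 DMSO plate 2, 14.0% of counts came from 1 member, TRCN0000000366, which was at 160090 CPM there and at 18339 and 24316 CPM in the other UMSCC1 DMSO plates, while its neighbour TRCN0000000365 was at 97.2 CPM in plate 2 and at 51.7 and 18.8 CPM in the others.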

How the results depend on the processing

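The neighbour agreement of DMSO levels stayed positive with an exact permutation p under 0.05 in every alternative that left at least 6 plates; in runs of 5 it was 0.286, and without 1 plate at a time it ranged from 0.196 to 0.210. The gefitinib difference passed an unadjusted 0.05 only with Spearman correlations (0.0209, exact permutation p = 0.0391), and ranged from 0.00866 to 0.0188 without 1 plate; with each treated plate against the mean of the DMSO plates (no replicate block) it was 0.0103. The AZD8931 difference passed with 5 counts added (0.0279, exact permutation p = 0.043), a mean of at least 20 counts (0.0316, p = 0.0469, exact permutation), no replicate block (0.0262, exact permutation p = 0.0156), and without UMSCC8 (0.0227, exact permutation p = 0.0312), and ranged from 0.0115 to 0.0269 without 1 plate (lowest exact permutation p = 0.0312, without UMSCC8 AZD8931 plate 3). The cause was not tested. With no replicate block, the ratios of a line share the mean of its DMSO plates. Its 9 values are then not independent, and the permutation p does not allow for this. Leaving out the 4 plates that stood apart, chosen after seeing the data, gave 0.213, 0.0163 and 0.0281 for levels, gefitinib and AZD8931. DESeq2 called 7, 7, 71, 6, 0 and 21 members (gefitinib then AZD8931, in UMSCC25, UMSCC8 and UMSCC1), where edgeR called 0; without the plates that stood apart it called 76, 5, 0 and 10 in UMSCC8 and UMSCC1, and edgeR 0 except 1 in UMSCC1 with AZD8931 (TRCN0000010117). Without 1 library, edgeR called 0 to 2 members in UMSCC25 with AZD8931 (TRCN0000000374 and TRCN0000000933, without gefitinib plate 3) and 0 to 1 in UMSCC1 with AZD8931 (TRCN0000010117, without DMSO plate 2), and 0 in the other 4 comparisons. With the replicate block, edgeR called 0 members in the 6 comparisons (185, 234, 316, 178, 87 and 231 at an unadjusted p under 0.05, in the same order). Of 27 same-number correlations of deviations, from -0.169 to 0.172, 2 were over 0.1 and 6 plates correlated best with their own number. The median DMSO member held 28 to 84 counts.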

Other observations

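TRCN0000010117, of the run of clone numbers 10115 to 10119, had the smallest p of all members with AZD8931 in UMSCC1. It was at 155, 44.2 and 503 CPM with DMSO and at 12.2, 11.01 and 7.43 CPM with AZD8931, every treated plate below every DMSO plate (log2 fold change -4.54 ± 0.87 (SE), edgeR adjusted p = 0.08955).

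TRCN0000000933, of the run of clone numbers 932 to 957, was at 566, 497 and 644 CPM with DMSO and at 1453, 1567 and 1104 CPM with AZD8931 in UMSCC25, with no overlap (log2 fold change 1.27 ± 0.30 (SE), edgeR adjusted p = 0.2019).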
